A study of Mus musculus with 32 samples.

Results

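Mesothelial genes were followed in liver RNA of male C57/BL6 mice: Msln, Pdpn, Wt1, Gpm6a, Upk3b and Upk1b. They were selected by gene name, and the set of 6 was put together because Msln and Pdpn were higher after partial hepatectomy (PH) in mice given Fc-GLP-1, a long-acting glucagon-like peptide-1 receptor agonist. The values that chose them are therefore the differences after against before PH under Fc-GLP-1, and these are described here with no test. On the arrays, 7 of 55681 probes, printed in 16 spots, carried these names. Of the 6 genes, 4 (Msln, Pdpn, Wt1 and Gpm6a) had a probe that was well above background throughout 1 group or more and entered the tests over 21071 genes, and 2 (Upk3b and Upk1b) did not.

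There were 32 arrays, 1 for each liver sample, with 4 in each of 8 groups. Mice aged 8 weeks received control chow (C) or a methionine and choline deficient diet (MCD), which produces fatty, inflamed liver, for 3 weeks. Treated mice on chow (C+Fc-GLP-1) and on MCD (M+Fc-GLP-1) received Fc-GLP-1 for 2 weeks before surgery at 10 nmol/kg every 2 days. The protocol text states that diets and treatments went on after surgery, and it calls the drug throughout a combined GLP-1 and glucagon receptor agonist at 4.4 mg/kg/day. The source label of C+Fc-GLP-1 after PH also names a dual agonist for the time after PH, whereas that of M+Fc-GLP-1 after PH says that the treatment was unchanged, so which drug was given was not settled. All mice of the groups after PH had lost 70% of the liver and were alive 2 weeks later, so those groups hold survivors. Tissue before PH was the liver taken out at surgery from mice of the same group, but which array before PH and which after it came from one mouse was not given. The labels call the 4 samples of a group biological replicates.

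The mesothelium is the single layer of flat cells that covers the liver capsule and lines the peritoneal cavity. Mesothelial cells keep epithelial traits such as keratins and tight junctions and, in the developing liver, can give rise to stellate cells and fibroblasts. Msln encodes mesothelin, a surface protein held by a lipid anchor that binds the mucin MUC16. Pdpn encodes podoplanin, a mucin-like membrane protein of mesothelium and lymphatic endothelium that engages the platelet receptor CLEC-2 and links to the cytoskeleton through ezrin and moesin. Wt1 encodes a zinc-finger transcription factor of mesothelium and of its fetal precursors. Gpm6a encodes a membrane glycoprotein best known in neurons. Upk3b and Upk1b encode uroplakins, membrane proteins of the bladder lining, of which UPK3B is also made by mesothelium. Because whole liver was measured, fewer mesothelial cells and less RNA per cell cannot be told apart.

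Each probe is 60 bases long, and its position is given as in the array files, on mouse build mm9. The Msln probe lies at chr17:25885569-25885628 on the minus strand and was well above background on 24 of 32 arrays. The Pdpn probe that stood for the gene lies at chr4:142857339-142857398 on the minus strand and was also well above background on 24 arrays. The Wt1 probe (chr2:105013656-105013715, plus strand) reached that on 25 arrays, the Gpm6a probe (chr8:56145539-56145598, plus strand) on 19 and the Upk3b probe (chr5:136520522-136520581, plus strand) on 10. The Upk1b probe (chr16:38773859-38773918, minus strand) was printed 10 times and reached it on 4 arrays.

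A separate Pdpn probe was well above background on 1 of 32 arrays and was not used. Its 60 bases are placed over 818 bases of the genome (chr4:142858329-142859146, minus strand, mm9), so they do not lie in 1 unbroken stretch. It is shown, in lower case throughout, because the 2 Pdpn probes differ in signal and every Pdpn level given here comes from the other one.
Pdpn gapped probe: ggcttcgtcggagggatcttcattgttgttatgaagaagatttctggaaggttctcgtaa

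Promoter sequence from RefSeq (GRCm38.p6) was at hand for 3 of the 6 genes: Pdpn, Upk3b and Gpm6a. The 250 bases before the start site of Pdpn (chr4:143299565-143299814, minus strand) and of Upk3b (chr5:136038246-136038495, plus strand) are printed so that these genes can be read beside their regulatory sequence. Capitals mark the matches among 5 short motifs searched on both strands. These were the E-box CACGTG, the TEAD box CATTCC, the Sp1 box GGGCGG, the AP-1 box TGANTCA and the TATA box TATAAA.
Pdpn promoter: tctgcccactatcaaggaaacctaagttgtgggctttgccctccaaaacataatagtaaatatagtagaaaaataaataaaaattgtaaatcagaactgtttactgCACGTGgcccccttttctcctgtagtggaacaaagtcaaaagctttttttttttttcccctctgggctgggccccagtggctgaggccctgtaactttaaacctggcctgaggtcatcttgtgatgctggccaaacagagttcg
Upk3b promoter: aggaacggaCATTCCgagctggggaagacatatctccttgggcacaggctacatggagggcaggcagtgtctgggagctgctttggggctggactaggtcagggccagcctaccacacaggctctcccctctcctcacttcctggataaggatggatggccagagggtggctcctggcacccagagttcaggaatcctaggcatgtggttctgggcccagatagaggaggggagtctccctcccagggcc
The Pdpn promoter held 1 E-box, at -144 from the start site, a motif found in 6.02% of 32851 promoters. The Upk3b promoter held 1 TEAD box, at -241, a motif found in 12.6% of them. These matches describe the letters only.

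Levels are log2 signals from which the 75th percentile of the same array was subtracted, so that 0 is the 75th percentile of all probes of that array. The share of probes well above background ran from 36.2% to 69.1% over the 32 arrays. C and MCD before PH shared 1 slide and both treated groups before PH shared another, whereas C and MCD after PH each had a slide of their own, read on a separate scanner, and both treated groups after PH shared 1 slide. Time, and diet after PH in untreated mice, therefore cannot be told apart from slide. The tissue carried its hepatocyte markers, with Alb well above background on 32 of 32 arrays.

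Msln was measurable on every array after PH and on few arrays from treated mice before it. In C before PH the 4 arrays stood at -1.08, -0.72, -0.81 and -0.85. In MCD before PH they stood at -2.54, -1.45, -2.42 and -5.72, the last of them not well above background. Every array on MCD was thus below every array on chow, and 1 array was far lower than the other 3. In C+Fc-GLP-1 before PH the values were -4.83, -4.24, -0.78 and -3.44, of which only -0.78 was well above background. In M+Fc-GLP-1 before PH the values were -5.18, -4.36, -4.70 and -3.50, none of them well above background. Before PH, Msln was thus measurable on all chow arrays, on 3 of 4 MCD arrays and on 1 of the 8 arrays from treated mice.

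After PH, Msln was well above background on all 16 arrays. The values were 0.84, 0.36, -1.98 and 2.58 in C after PH and -0.36, -0.07, 0.37 and 0.97 in MCD after PH. In the treated groups they were 1.62, -1.30, -0.80 and -0.29 for C+Fc-GLP-1 and 1.31, -0.58, 0.94 and 1.96 for M+Fc-GLP-1. All 4 groups after PH overlapped, and C after PH alone spanned 4.56 log2 units, with replicate 3 lowest and replicate 4 highest. By mean, the order was M+Fc-GLP-1 after PH (0.91 ± 1.08, SD, n = 4), C after PH (0.45 ± 1.88), MCD after PH (0.23 ± 0.58), C+Fc-GLP-1 after PH (-0.19 ± 1.28), C before PH (-0.87 ± 0.15), MCD before PH (-3.03 ± 1.86), C+Fc-GLP-1 before PH (-3.32 ± 1.79) and M+Fc-GLP-1 before PH (-4.44 ± 0.71). Of the 7 pairs of neighbours in that order, 6 overlapped, and only C before PH and MCD before PH did not.

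**Figure D1:**
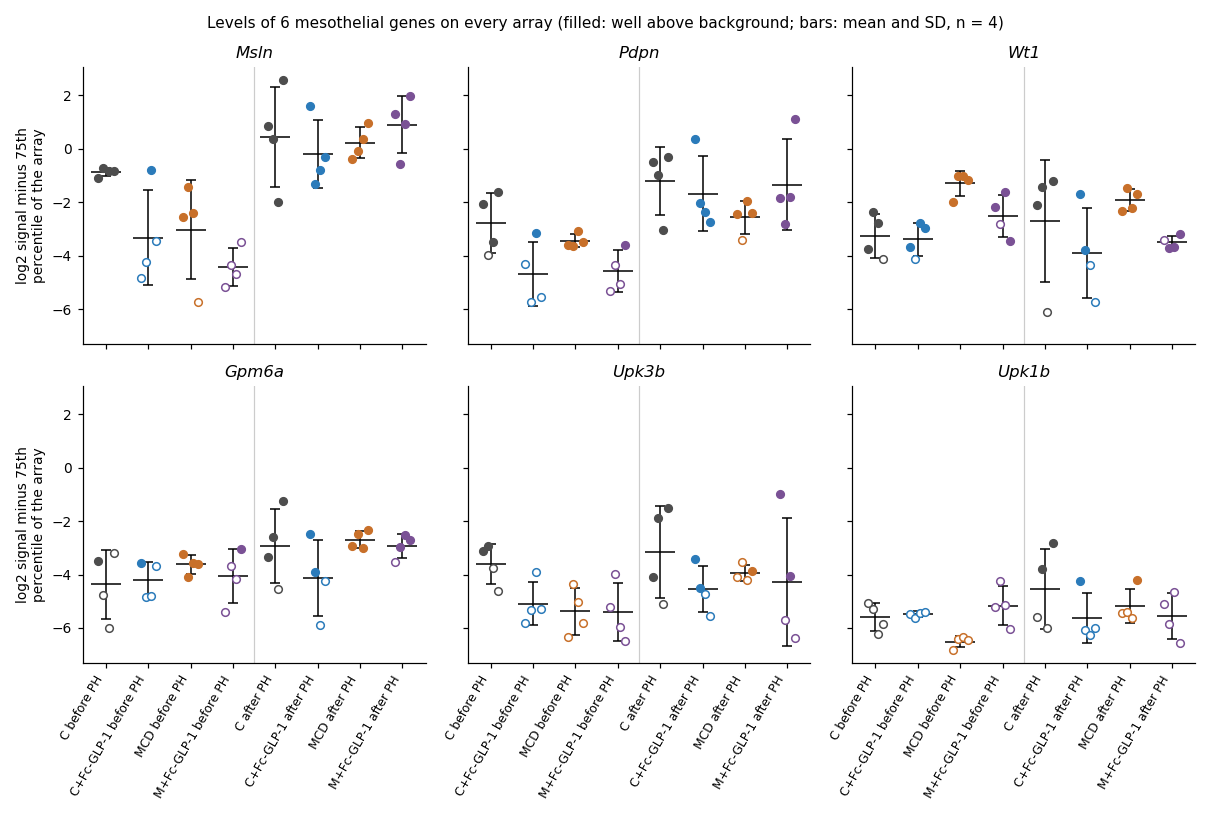
Level of each of the 6 genes on every array, as log2 signal minus the 75th percentile of the array, for 8 groups of 4 arrays with groups before PH left of the grey line. Filled points were well above background, and bars give the mean and SD. Msln was filled on all 16 arrays after PH and open on all 4 arrays of M+Fc-GLP-1 before PH, while Upk1b was filled on 4 of 32 arrays.

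Pdpn showed a similar order of times, with wide spread after PH: the SD of a group ran from 0.25 to 1.20 before PH and from 0.62 to 1.71 after it. Before PH its values were -2.08, -3.96, -3.48 and -1.60 in C and -3.59, -3.62, -3.08 and -3.48 in MCD. In treated mice before PH they were -4.32, -5.74, -3.16 and -5.54 on chow and -5.32, -4.35, -5.08 and -3.59 on MCD. Of these 8 arrays from treated mice, -3.16 and -3.59 were well above background, and the other 6 were not. After PH the values were -0.48, -0.99, -3.05 and -0.31 in C and -2.43, -3.43, -1.96 and -2.41 in MCD. Under Fc-GLP-1 after PH they were 0.37, -2.05, -2.36 and -2.72 on chow and -1.85, -2.82, -1.81 and 1.12 on MCD. In each treated group after PH, 1 array stood more than 2 log2 units above the rest of its group. The group means ran from -4.69 ± 1.20 (C+Fc-GLP-1 before PH) to -1.21 ± 1.26 (C after PH), and all 7 pairs of neighbours in the order overlapped.

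Wt1 differed from both surface proteins in where it was highest. MCD before PH had the highest mean (-1.30 ± 0.47), with values of -1.99, -1.02, -1.03 and -1.15, and MCD after PH followed (-1.93 ± 0.42), with -2.32, -1.46, -2.22 and -1.70. In C before PH the values were -3.76, -2.36, -2.78 and -4.13, the last not well above background, and all 4 lay below all 4 of MCD before PH. In C after PH they were -2.11, -1.44, -6.09 and -1.19, where replicate 3 was not well above background and stood alone. Under Fc-GLP-1 the means were -3.39 ± 0.63 on chow and -2.52 ± 0.80 on MCD before PH, and -3.90 ± 1.68 and -3.50 ± 0.24 after PH. M+Fc-GLP-1 after PH ranged from -3.72 to -3.21 and did not overlap MCD after PH. All 7 pairs of neighbours in the order overlapped.

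Gpm6a was well above background on 19 of 32 arrays, with group means from -4.37 ± 1.29 (C before PH) to -2.69 ± 0.32 (MCD after PH). Its values in MCD were -3.22, -4.08, -3.57 and -3.60 before PH and -2.94, -2.48, -3.0 and -2.35 after PH, so that these 2 groups did not overlap. In C they were -3.48, -4.78, -6.01 and -3.19 before PH and -3.35, -2.59, -4.56 and -1.26 after PH, with overlap. All 7 pairs of neighbours in the order of the 8 groups overlapped.

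The uroplakins were near the floor of the assay. Upk3b was well above background on 2 of 4 arrays in C before PH (-3.14 and -2.94) and on none of the other 12 arrays before PH. After PH it was well above background on 3 arrays of C (-4.10, -1.90 and -1.51), 2 of C+Fc-GLP-1 (-3.42 and -4.50), 1 of MCD (-3.88) and 2 of M+Fc-GLP-1 (-0.99 and -4.04). The array at -0.99 stood 5.39 log2 units above the lowest of its group. Set against a floor, Upk3b was 2.25-fold higher in C before PH than in MCD before PH, and 1.81-fold higher in MCD after PH. The floor was, for each array of the dimmer group, its own signal or the lowest signal well above background on that array, whichever was higher. Only 2 arrays of C before PH and 1 of MCD after PH were well above background, so these values are not lower bounds.

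Upk1b was well above background on replicates 2 and 4 of C after PH (-3.78 and -2.81), replicate 1 of C+Fc-GLP-1 after PH (-4.25) and replicate 4 of MCD after PH (-4.22), and on no array before PH. In replicate 4 of C after PH all 10 spots of the probe were well above background, with processed intensities of 83.7 to 192. In replicate 3 of that group none of the 10 was, and the highest intensity was 12.5. Against the same kind of floor as for Upk3b, C after PH was 1.22-fold above C before PH. Only 2 of its 4 arrays were well above background, so this is not a lower bound.

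In untreated mice on chow, all 6 genes had a higher mean after PH than before, but no difference passed the test. Gpm6a differed by 1.42 (SE 0.64, adjusted p = 0.129), Pdpn by 1.57 (SE 0.74, adjusted p = 0.151), Msln by 1.32 (SE 0.86, adjusted p = 0.311) and Wt1 by 0.55 (SE 0.74, adjusted p = 0.661), all as log2 differences. Thus 0 of the 4 tested genes passed limma's moderated test at an adjusted p of 0.05, against 14% of all 21071 genes, and 2 had an unadjusted p under 0.05. The groups overlapped for all 6 genes. Markers of other cells changed in the same comparison: Col1a1, a collagen of stellate cells and myofibroblasts, rose by 2.77 (adjusted p = 0.00365), Fbln2, a marker of portal fibroblasts, rose by 1.56 (adjusted p = 0.000943), and Apoa1, a hepatocyte apolipoprotein, fell by 0.82 (adjusted p = 0.0118). They were the 1 call each among 7 tested stellate, 5 portal fibroblast and 6 hepatocyte markers. Of these, 4 stellate, 5 portal fibroblast and 1 hepatocyte marker had a higher mean after PH, and the stellate marker Reln was lowest of its list (-0.93). Among 6 macrophage markers, 5 passed as higher. The part of these cells in the member levels was not tested. One array weighed on this comparison: without replicate 3 of C after PH, Pdpn differed by 2.19 (adjusted p = 0.0493) and Gpm6a by 1.96 (adjusted p = 0.0402), and both passed. The median difference of the 4 genes was 1.37, beside -0.08 for all genes tested.

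In untreated mice on MCD, Msln rose after PH. Its mean went from -3.03 ± 1.86 to 0.23 ± 0.58, a log2 difference of 3.26 (SE 0.86, adjusted p = 0.0149) or 9.59-fold, with no overlap between the groups of 4. It was the 1 of 4 tested genes that passed, beside 9.43% of all genes in either direction and 6.21% upward. Pdpn differed by 0.88 (adjusted p = 0.507), Gpm6a by 0.93 (adjusted p = 0.400) and Wt1 by -0.63 (adjusted p = 0.660). The groups did not overlap for Msln, Gpm6a, Upk3b and Upk1b, although for both uroplakins no array before PH and only 1 array after PH was well above background. The share of all genes without overlap was not counted, so the lack of overlap is not shown to be particular to these genes. The Msln call was lost without replicate 4 of MCD before PH, the array at -5.72 (2.37, adjusted p = 0.0837), and with normexp background correction and quantile normalization (1.82, adjusted p = 0.0618). With only the arrays of the groups compared, Gpm6a passed as well (adjusted p = 0.0380). Markers of other cells changed here too. Of 7 bile duct markers Epcam passed, with a difference of -2.28 (adjusted p = 0.0178), and 2 had a higher mean after PH. Of 7 stellate markers Reln (-1.24, adjusted p = 0.0238) and Lrat (-1.03, adjusted p = 0.0352) passed, and 0 had a higher mean. The part of these cells in the member levels was not tested.

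The change over PH was then compared between the diets. Msln differed by 1.94 more on MCD than on chow (SE 1.21, adjusted p = 0.391), Wt1 by -1.17 (adjusted p = 0.577), Pdpn by -0.69 (adjusted p = 0.771) and Gpm6a by -0.50 (adjusted p = 0.812). No gene of the 4 passed this interaction test in limma, 0 had an unadjusted p under 0.05, and 2.85% of all genes passed. The Msln call in MCD mice is therefore not shown to differ from the change in chow mice.

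**Figure D2:**
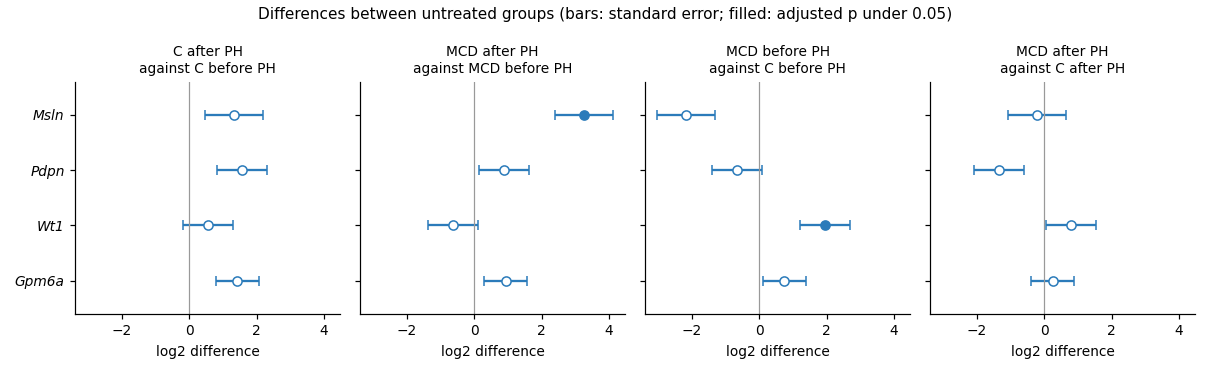
Log2 difference of the 4 tested genes in 4 comparisons of untreated groups, with bars for the standard error and filled points for an adjusted p under 0.05. Msln after against before PH on MCD (3.26) and Wt1 on MCD against chow before PH (1.96) are filled.

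Diet before PH was the comparison made within 1 slide, and there Wt1 and Msln went opposite ways. The brightness of the arrays still differed between these groups. The 75th percentile of intensity was 209 to 395 in C before PH and 442 to 564 in MCD before PH. The part of brightness in these differences was not tested. Wt1 rose on MCD by 1.96 (SE 0.74, adjusted p = 0.0494), or 3.89-fold, with no overlap. Only MCD before PH and MCD after PH had it well above background on every array, so it entered the test through groups where it was high, and without the filter on dim probes it did not pass (adjusted p = 0.0668). Msln was lower on MCD by a log2 difference of -2.17 (SE 0.86, adjusted p = 0.0601), which did not pass although the groups did not overlap. Pdpn differed by -0.66 (adjusted p = 0.535) and Gpm6a by 0.75 (adjusted p = 0.402). The 1 gene of 4 that passed stands beside 26.5% of all genes. The groups did not overlap for 3 of the 6 genes, Wt1 (higher on MCD), Msln and Upk1b (lower on MCD), with Upk1b well above background on no array of either group. Here too the share of all genes without overlap was not counted, so this is not shown to be particular to these genes. Wt1 lay at the threshold: of 15 alternative settings it did not pass in 9, with adjusted p values of up to 0.132. It passed with normexp and quantile normalization (1.06, adjusted p = 0.00864), with the authors' normalized values (0.98, adjusted p = 0.0303) and when the fit held these 2 groups alone (adjusted p = 0.00665), with a smaller difference in the former 2 cases. Msln passed without replicate 2 of MCD before PH (-2.70, adjusted p = 0.0322).

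**Figure D3:**
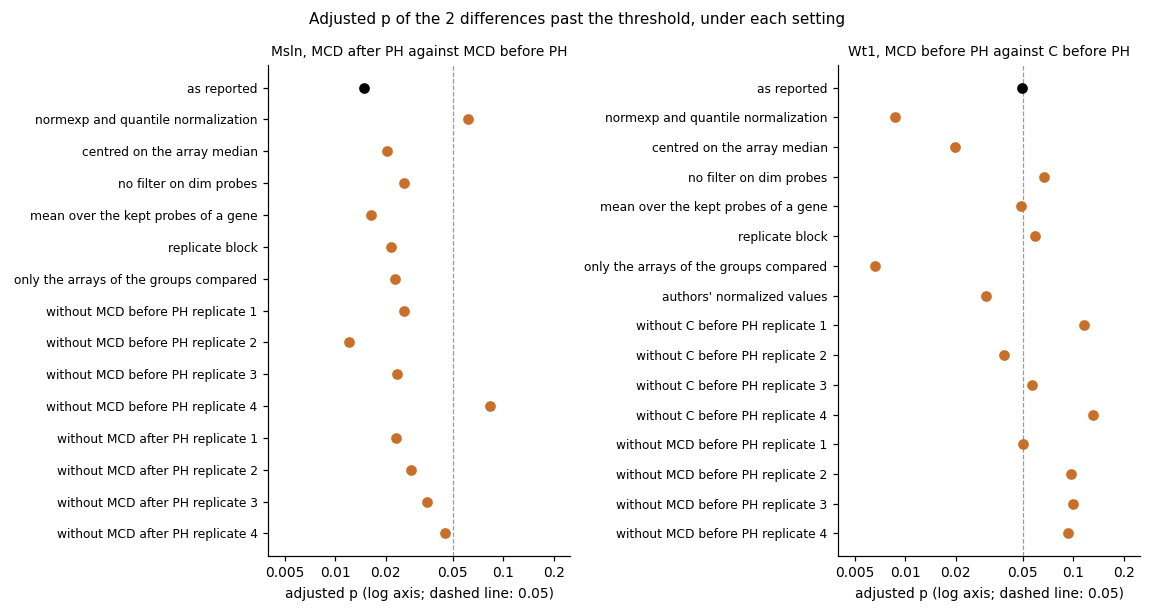
Adjusted p on a log axis for Msln after against before PH on MCD (left) and Wt1 on MCD against chow before PH (right), as reported in black and under each alternative in orange, with the threshold of 0.05 dashed. Msln passed in all but 2 of 14 alternatives and Wt1 failed in 9 of 15.

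Diet after PH gave no call among the 4 genes, with 0 at an unadjusted p under 0.05 in limma, beside 12.1% of all genes. MCD after PH differed from C after PH by -0.22 for Msln (adjusted p = 0.905), -1.35 for Pdpn (adjusted p = 0.257), 0.78 for Wt1 (adjusted p = 0.553) and 0.25 for Gpm6a (adjusted p = 0.855). The groups overlapped for all 6 genes. The signs for Msln, Wt1 and Gpm6a rested on single arrays of C after PH: without replicate 4 Msln differed by 0.49, and without replicate 3 Wt1 differed by -0.34 and Gpm6a by -0.29.

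Under Fc-GLP-1, the comparison that chose these genes, Msln and Pdpn were higher after PH on both diets, whereas Wt1 and Gpm6a differed less. On chow Msln was higher by 3.13 (8.74-fold, groups overlapping at the -0.78 array) and Pdpn by 3.00 (8.0-fold, no overlap), where for each gene only 1 of 4 arrays before PH was well above background. On MCD Msln was higher by 5.35, but no array before PH was well above background. Set against the kind of floor used for Upk3b, the log2 difference was 4.56, or 23.6-fold. Pdpn was higher there by 3.24 (9.48-fold, with 1 of 4 arrays before PH well above background). The groups overlapped for neither gene. Wt1 differed by -0.51 and -0.98 and Gpm6a by 0.10 and 1.14 on chow and MCD. Adjusted over all genes, 0.835% of genes on chow and 1.71% on MCD passed in these comparisons, which is background only since the genes were chosen from them. With normexp and quantile normalization the Msln difference on MCD was 3.23 and the Pdpn difference on chow 1.25.

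Treated and untreated groups were also set side by side at each time. Before PH, C+Fc-GLP-1 minus C was -2.46 for Msln and -1.91 for Pdpn, with 1 of 4 treated arrays well above background for each. On MCD before PH, the untreated group stood 1.53-fold above M+Fc-GLP-1 for Msln against the kind of floor used for Upk3b. There 3 of 4 untreated arrays and no treated array were well above background. M+Fc-GLP-1 minus MCD was -1.14 for Pdpn, where 1 treated array was well above background. After PH, C+Fc-GLP-1 minus C was -0.65 for Msln and -0.48 for Pdpn, and M+Fc-GLP-1 minus MCD was 0.68 and 1.22. The treated and untreated groups after PH overlapped for both genes on both diets. Treated and untreated groups were on separate slides at each time, and these values share arrays with the choice of the genes, so they carry no test.

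Within groups, the signals of some of these genes also varied together between arrays. All 32 arrays were used, including the 16 from treated mice, whose differences chose the genes. Msln and Pdpn were each well above background on 24 arrays, Wt1 on 25 and Gpm6a on 19. Part of the deviations therefore lay near background, most of all for Msln and Pdpn in treated mice before PH. The correlations were not tested in untreated arrays alone or in arrays well above background alone. After each array was set against its group mean, Msln and Pdpn correlated over the 32 arrays with a Pearson r of 0.61 (permutation p = 0.00056 over 100000 shuffles within groups, two-sided, 0.00336 after Benjamini-Hochberg adjustment over the 6 pairs) and a Spearman rho of 0.59 (permutation p = 0.00108, adjusted 0.00648). Pdpn and Gpm6a followed (r = 0.56, permutation p = 0.00645, adjusted 0.0193, and rho = 0.54, permutation p = 0.0106, adjusted 0.0317). Msln and Wt1 passed by Pearson (r = 0.51, permutation p = 0.0242, adjusted 0.0485) but not by Spearman (rho = 0.36, permutation p = 0.0563, adjusted 0.113). The remaining 3 pairs had Pearson r of 0.33 to 0.40 with adjusted permutation p from 0.0972 to 0.252, and Spearman rho of 0.03 to 0.23 with adjusted permutation p from 0.368 to 0.890.

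Another setting left out, for each pair, the 2 arrays farthest from the median of the gene named first. For Msln and Pdpn these were replicate 4 of MCD before PH and replicate 3 of C+Fc-GLP-1 before PH. The largest Pdpn deviations, in replicate 4 of M+Fc-GLP-1 after PH (2.46) and replicate 1 of C+Fc-GLP-1 after PH (2.06), stayed in that pair. Msln and Pdpn then stood at r = 0.66 (adjusted permutation p = 0.0132) and Msln and Wt1 at 0.62 (adjusted permutation p = 0.0519). Pdpn and Gpm6a stood at 0.53 (adjusted permutation p = 0.0519), and Wt1 and Gpm6a turned to -0.29. Msln and Gpm6a then passed (0.56, adjusted permutation p = 0.0447). Without the 4 arrays of C after PH, the relation of Msln and Pdpn was 0.54 (adjusted permutation p = 0.0257), and that of Msln and Wt1 was 0.30 and no longer passed. The deviations of these genes also moved with the brightness of the array, with r against the log2 75th percentile of 0.21 for Msln, 0.35 for Pdpn, 0.50 for Wt1 and 0.30 for Gpm6a. With brightness and the share of detected probes removed, Msln and Pdpn remained at 0.60 (adjusted permutation p = 0.00114) and no other pair passed. Each group was on a single slide, so slide differences do not enter these values. Genes of other lists, picked here after their values were seen and given with no test, followed Pdpn about as closely as Msln did or more so: the deviations of Krt7 and Krt19 had r = 0.76 with those of Pdpn, Aldh1a2 0.73, Spp1 0.69 and Gas6 0.66, and Epcam had 0.60. Those of Msln had r = 0.77 with Igfbp6 and 0.73 with Rspo1.

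**Figure D4:**
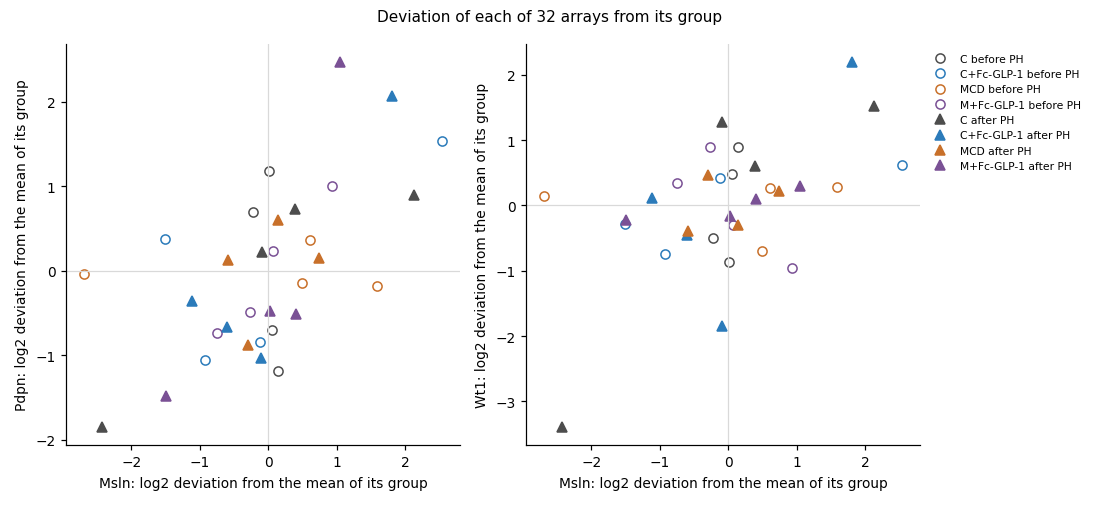
Deviation of each of 32 arrays from the mean of its group in log2 units, Msln on the x axis against Pdpn (left, r = 0.61) and Wt1 (right, r = 0.51), with open circles before PH and triangles after PH. The C after PH array at the lower left of both panels is replicate 3.

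The genes whose levels over the 32 arrays were most like those of Msln were Igfbp6 (r = 0.87), a binding protein of insulin-like growth factors, and Rspo1 (r = 0.87), a secreted activator of Wnt signalling. Igfbp5, Pdpn and Anxa8 followed at 0.83, then Gpc3 at 0.80, Nkain4 at 0.79, Cpe and Prr15 at 0.77 and Nbl1 at 0.76. Of these 10, Igfbp6, Rspo1 and Nkain4 stood on the list of other mesothelial genes. Those most like Pdpn were Fxyd6 (0.86), Msln (0.83), Cpe (0.80), Nbl1 (0.79) and Igfbp6 (0.77). Wt1 resembled other genes, led by Capn6 (0.71), as did Gpm6a, led by Cfl1, Chil1 and Dock10 (0.67 each). Upk3b was most like Rspo1 (0.80), and Upk1b most like Dmkn (0.71) and Cldn15 (0.66), a tight junction gene. These r values describe arrays that share group differences and array brightness.

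Of 17 other mesothelial genes, 11 passed the filter on dim probes, 5 (Lrrn4, Bnc1, Calb2, Crb2 and Tbx18) were below it and Muc16, the binding partner of mesothelin, had no probe of that name. After PH on chow, 2 of the 11 rose and none fell, beside 6.08% of all genes that rose: Aldh1a2, which makes retinoic acid, by 1.51 (adjusted p = 0.0133) and Slpi, a secreted protease inhibitor, by 2.28 (adjusted p = 0.0288). The median difference of the 11 was 0.58, beside -0.08 for all genes. After PH on MCD none passed, with a median of 0.23 beside -0.03, and Slpi was highest (2.12). On MCD before PH, Slpi rose by 2.89 (adjusted p = 0.00311) while Nkain4 fell by 1.62 (adjusted p = 0.0269) and Cldn15 fell by 1.39 (adjusted p = 0.0107), with a median of -0.50 beside -0.13. In that comparison 10.9% of all genes rose and 15.5% fell. After PH, MCD against C gave Slpi higher by 2.73 (adjusted p = 0.00985) and Aldh1a2 lower by a difference of -1.84 (adjusted p = 0.00297), where 6.05% of all genes were higher and 6.09% lower. None of the 11 passed the test of the diet by time interaction. Slpi is also made by other epithelia and by immune cells, and Krt7 and Krt19 are markers of bile duct cells as well. Krt8 and Krt18 had means of 6.60 and 7.77 in C before PH, where Msln had -0.87. Counts and medians over this list therefore do not stand for mesothelium alone.

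Under Fc-GLP-1, 10 of the 11 had a higher mean after PH on chow and all 11 on MCD, with medians of 0.73 and 0.50, against 0.00 and -0.03 for all genes. Rspo1 was highest on chow (2.67) and Igfbp6 on MCD (2.89). These counts share arrays with the choice of the 6 genes, cover a list not specific to mesothelium and are a description.

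Among 18 partners and relatives of the 6 genes, 11 passed the filter. After PH on chow, Cd9, a tetraspanin that associates with podoplanin, rose by 1.69 (adjusted p = 0.0172), the 1 call of 11, beside 6.08% of all genes that rose. On MCD before PH, Clec1b, which encodes the CLEC-2 receptor of podoplanin, rose by 1.68 (adjusted p = 0.00148) and Wtip, a WT1-interacting protein, rose by 1.00 (adjusted p = 0.0342). Upk1a, another uroplakin, fell by 0.85 (adjusted p = 0.0144). These 2 higher and 1 lower of 11 stand beside 10.9% and 15.5% of all genes. None passed over PH on MCD, between diets after PH or in the interaction. The medians of the 11 were 0.60 over PH on chow, 0.06 over PH on MCD, 0.36 for diet before PH and -0.02 for diet after PH, beside -0.08, -0.03, -0.13 and -0.03 for all genes.

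The spread among livers of C after PH was shared by several mesothelial genes and by markers of other cells. In C after PH, Igfbp6 stood at 0.24, 2.99, -1.58 and 2.40, Rspo1 at -1.39, -0.74, -3.35 and 0.57, and Nkain4 at -2.81, -0.60, -4.13 and -0.75. As for Msln, Pdpn, Wt1 and Gpm6a, replicate 3 was the lowest in each. That replicate was also lowest of its group in the summed signal of cholangiocyte (4.00), portal fibroblast (23.4), stellate (5.71) and macrophage markers (67.8), and highest in that of hepatocyte markers (2616, against 1503 to 1995). The part of this makeup in the member levels was not tested. In M+Fc-GLP-1 after PH, Rspo1 stood at -0.24, -3.60, -1.28 and -3.78, and Upk3b at -0.99, -5.72, -4.04 and -6.38. Both were highest in replicate 1 and next in replicate 3 of that group, whereas Msln and Pdpn were highest in replicate 4. Nkain4 (SD 0.11) and Wt1 (SD 0.24) varied little in that group, beside Msln (SD 1.08) and Pdpn (SD 1.71).

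Bile duct keratins were high on the arrays where Pdpn was highest under Fc-GLP-1. In M+Fc-GLP-1 after PH, Krt19 stood at -0.83, -0.54, -1.40 and 3.34 and Krt7 at -2.46, -2.34, -3.14 and 1.41, with replicate 4 far above the rest, as for Pdpn. In C+Fc-GLP-1 after PH, replicate 1 was highest for Pdpn (0.37), Krt19 (1.84) and Krt7 (0.26). Both keratins are markers of bile duct cells and stand on the mesothelial list as well. Of 8 cholangiocyte markers 7 passed the filter, all but Cftr, and their summed signal relative to the array's 75th percentile was 62.2 in that replicate 4 against 5.21 to 6.50 in the rest of its group, and 71.1 in that replicate 1 against 6.62 to 14.9. In C after PH it was 52.3 in replicate 1 and 4.00 to 7.59 in the others, and in MCD after PH it ranged from 2.83 to 4.21. Without replicate 4 of M+Fc-GLP-1 after PH, Pdpn was higher after PH by 2.42 and Msln by 4.99, and without replicate 1 of C+Fc-GLP-1 after PH by 2.31 and 2.52. Most of these high sums came from Spp1, the secreted protein osteopontin, which macrophages and stellate cells can make too: it gave 73.2% of the sum in that replicate 4, 89.9% in that replicate 1 and 85.7% in replicate 1 of C after PH. The part of bile duct cells in the Pdpn values was not tested.

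**Figure D5:**
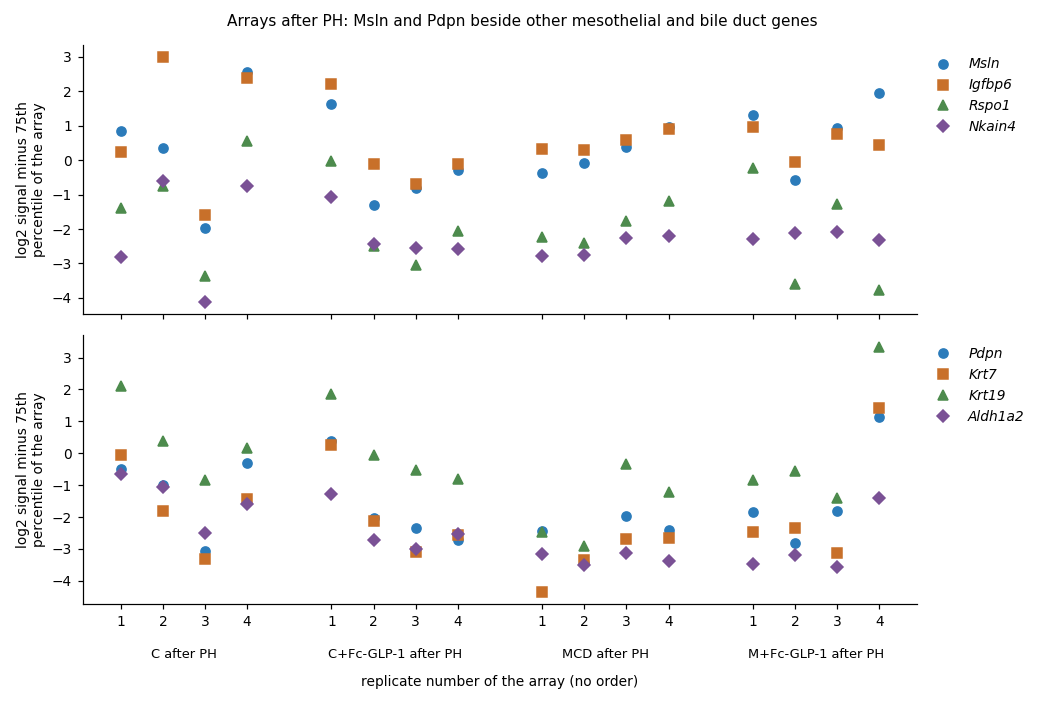
Levels on the 16 arrays after PH, as log2 signal minus the 75th percentile of the array, of Msln with the mesothelial genes Igfbp6, Rspo1 and Nkain4 (top) and of Pdpn with Krt7, Krt19 and Aldh1a2 (bottom). Replicate 3 of C after PH is lowest of its group for each of the 8 genes, and Krt7 and Krt19 reach 1.41 and 3.34 on the M+Fc-GLP-1 array where Pdpn reaches 1.12.

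Markers of other cell types also varied between arrays. Of 5 adipocyte genes only Cfd, a secreted complement protease, passed the filter, at -6.45, 3.14, -0.89 and -0.35 in C after PH and 2.10, -1.07, -0.24 and -2.79 in C+Fc-GLP-1 after PH. Adipoq, the adipocyte hormone adiponectin, was below the filter but reached -0.71 in replicate 2 of C after PH and -1.70 in replicate 1 of M+Fc-GLP-1 after PH, where the highest other values of the same groups were -4.67 and -3.62. Igfbp6 was highest of its group on the former array, and Rspo1 and Upk3b on the latter. Replicate 1 of C+Fc-GLP-1 after PH, highest of its group for all 6 genes, also had the highest Cfd and Adipoq (-2.63). Of 6 lymphatic markers, which include Pdpn, 4 passed the filter and none was called in any of the 5 tests. In both comparisons under Fc-GLP-1 the lymphatic medians, which include Pdpn, were 0.03 and -0.22. Pdpn was the highest of those 4 there, a place that came with its choice by these comparisons. The part of lymphatic cells in the Pdpn values was not tested.

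Among 6 macrophage markers, 5 rose after PH on chow, beside 6.08% of all genes, and 4 on MCD before PH, beside 10.9%. Their summed signal ranged over 31.2 to 62.4 in C before PH, 53.9 to 143 in MCD before PH, 67.8 to 228 in C after PH and 66.5 to 147 in MCD after PH. Diet before PH also changed 3 of 7 stellate markers upward (Lrat by 1.88, adjusted p = 8.03e-05, Hand2 and Col1a1) and 1 of 5 portal fibroblast markers (Entpd2 by 1.26, adjusted p = 0.0267). In those lists 5 of 7 stellate and 3 of 5 portal fibroblast markers had a higher mean on MCD. The lowest were Acta2 (-0.79) and Eln (-0.50). Among 4 pancreatic acinar markers that passed the filter, Cela1 fell by 1.39 over PH on chow (adjusted p = 0.0121) and rose by 1.83 over PH on MCD (adjusted p = 0.00199). For diet before PH, Ctrb1 differed by -2.46 (adjusted p = 2.75e-05). In these comparisons 0, 3 and 1 of the 4 had a higher mean, and 14%, 9.43% and 26.5% of all genes passed. Of the urothelial markers Upk2 and Upk3a were below the filter, with Upk2 well above background on 0 of 32 arrays and Upk3a on 1. Whether adherent fat, inflammation or other cells had a part in the levels of the mesothelial genes was not tested.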

How the data were processed

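Liver RNA of 32 samples, 4 in each of 8 groups by the labels, was hybridised by the authors to Agilent 1-colour arrays read with Feature Extraction 10.7.3.1. The deposited scanner files hold, per the file headers, the processed intensity of each spot with flags, and a deposited table holds the authors' normalized log2 values, whose centring is not stated. The study used limma, with no version given in the sources used here. The members and gene lists were chosen with earlier results of these data known.

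Control spots were left out, spots of a probe averaged, and each array's 75th percentile was subtracted from log2 of the processed intensity. A probe was kept when well above background on all arrays of 1 group or more, and the brightest kept probe stood for a gene. Groups were fitted together in limma 3.58.1 (R 4.3.3, lmFit and eBayes) with Benjamini-Hochberg adjustment over 21071 genes at 0.05. Correlations, fold differences against a floor and figures were made in Python 3.11.15, and scripts were tested on simulated data. Differences that involve treated groups got no test, since those arrays chose the genes. The permutation tests of the correlations within groups did include those arrays. Alternatives were normexp (offset 50) with quantile normalization, median centring, no filter, the mean of the kept probes, a replicate block, only the arrays compared, each array left out and the authors' log2 values within a time. The correlations without C after PH and with brightness and detection removed were added after seeing the data.

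Named were the 6 genes, the 5 genes (10 for Msln) most correlated with each, and, of the fixed lists, genes past the threshold or at a list's extreme. Not every such list gene was named. Chosen after their values were seen were the mesothelial, keratin and fat genes whose single arrays are given. The number of arrays limits the precision. Replicate numbers did not pair samples: same-numbered arrays of the groups compared correlated in their deviations by -0.03 to 0.20. The scanner of each slide comes from the file headers.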

Additional observations from a re-analysis of the deposited data

Results flagged for a closer look

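Among 56 groups of 4 arrays examined over the 7 probes, 3 held 1 array whose gap to the nearest other array was a large share of the range of the group by Dixon's criterion, and chance gives about 1 in 20. Upk1b in C+Fc-GLP-1 after PH had replicate 1 apart from the others, above them, with a gap of 0.864 of the range. Upk1b in MCD after PH had replicate 4 apart, also above, with a gap of 0.843 of the range. In both groups the array that stood apart was the only one of the group well above background. Wt1 in MCD before PH had replicate 1 apart, below the others, with a gap of 0.861 of the range, and without it Wt1 on MCD against chow before PH was 2.19 with an adjusted p of 0.0505.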

How the results depend on the processing

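Over the alternatives, 381 of 408 member values kept their direction and their side of the threshold, or moved by less than the spread between replicates. The number of members called over PH on chow was 0, and 0 to 2 with 1 array left out. Over PH on MCD it was 1, against 0 with normexp and quantile normalization, 2 with only the arrays of the groups compared and 0 to 1 with 1 array left out. For diet before PH it was 1, against 0 without the filter, 0 with the replicate block and 0 to 1 with 1 array left out. The replicate block ended the Wt1 call (adjusted p = 0.0588), and changed no other call of a member. Of the correlated pairs, 3 passed, against 1 without C after PH and 1 with brightness and detection removed. Signs turned for diet after PH (with 1 array left out, Msln -1.03 to 0.49, Wt1 -0.34 to 1.29 and Gpm6a -0.29 to 0.81), for the interaction of Gpm6a (-1.04 to 0.063), for Wt1 over PH in C+Fc-GLP-1 (-1.24 to 0.11), for Gpm6a there (-0.016 with median centring, and -0.45 to 0.69 with 1 array left out) and for the correlation of Wt1 and Gpm6a (-0.29). The cause was not tested.

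Over all genes, calls over PH on chow were 2940, against 1163 with only the arrays compared, and for diet after PH 2558 against 1611. Over PH on MCD they were 1987, against 1264 with normexp, and for the interaction 601, against 332 with median centring and 329 without the filter. Median centring moved the median of all genes for diet before PH from -0.13 to 0.24 and its calls from 2306 higher and 3268 lower to 4206 and 1266. The splits of higher and lower calls moved over PH on chow (1281 and 1659 to 1613 and 896), over PH on MCD (1308 and 679 to 910 and 853), for diet after PH (1275 and 1283 to 1438 and 886) and for the interaction (373 and 228 to 66 and 266). Signals near background, the levels of Upk3b and Upk1b above all, limit what can be compared.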
